A study of Rattus norvegicus with 12 samples.

Results

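Of the 18144 features on the array, 10 carried the symbol of an ionotropic glutamate receptor subunit alone, and they were chosen by that symbol. They stood for 5 genes, Gria2, Gria3, Grik1, Grik2 and Grin2d, among the 4497 tested genes with a single symbol. Each gene was read from 1 clone, spotted on 2 neighbouring features. RNA came from punches, combined from slices of 250 µm, of rat tissue that the labels call NTS. The groups were 6 animals called alcoholic, which the series title describes as ethanol treated, and 6 controls, joined by the labels into 6 pairs. The sources used here give no dose, duration, strain, age or sex. The RNA of every animal was amplified and labelled with Cy5 for 1 array, against a reference RNA in Cy3 whose make-up they do not give.

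Ionotropic glutamate receptors are ligand-gated cation channels that carry most fast excitatory transmission between neurons of the brain. They are built from subunits of 3 main families. AMPA receptors (Gria genes) open and close fastest, kainate receptors (Grik genes) act both before and after the synapse and tune transmitter release, and NMDA receptors (Grin genes) need glutamate together with a co-agonist and are blocked by magnesium until the membrane is depolarised. GluA2, the product of Gria2, carries an edited pore residue that keeps AMPA channels nearly impermeable to calcium, so the share of GluA2 among AMPA subunits sets how much calcium enters. GluA3, from Gria3, usually pairs with GluA2. GluK1 and GluK2, from Grik1 and Grik2, form the low-affinity kainate channels. GluN2D, from Grin2d, gives NMDA receptors slow closing and weak magnesium block and is known chiefly from the brainstem, the diencephalon and inhibitory neurons.

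The deposited values were taken as log2 ratios of sample over reference. Neither base nor direction is stated with them. The largest size, 13.92, exceeds what signals of 16 bits would allow as natural logs (11.09) or log10 (4.816), so base 2 is likely if the scans had that depth, and every fold below rests on it. The dyes make the direction likely, and every sign below turns if the ratio runs the other way. Exact zeros were treated as missing, and the median of each array was subtracted, so a centred value of 0 is the ratio of the middle feature of that array. Medians before centring lay between 0.35 and 1.85. After centring, the correlation between any 2 of the 12 arrays over all features was between 0.839 and 0.924. None of the 10 features held an exact zero on any array, so each of the 5 genes had a value in all 12 animals. Signal over background was not used here. Precision is limited by the number of arrays. In a tissue punch, fewer cells of a type and less RNA per cell cannot be told apart.

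The ratio to the reference set the AMPA genes and Grik2 apart from Grik1 and Grin2d. In control animals the centred log2 ratio was -3.40 ± 0.52 (SD, n = 6) for Gria3, -2.75 ± 0.30 for Gria2, -2.25 ± 0.56 for Grik2, -0.53 ± 0.24 for Grik1 and 0.09 ± 0.20 for Grin2d. These are ratios to a reference of unknown make-up, relative to the array median. They do not rank the amounts of the 5 transcripts. Every array had the animal in Cy5 and the reference in Cy3. A dye effect on a gene therefore cannot be told apart from its ratio to the reference, before or after centring. By limma, with Benjamini-Hochberg adjustment over 12207 genes or unnamed features, 4 of the 5 genes lay below the array median in controls and 0 above it. A call in this comparison is common, since 38.1% of everything tested was called below the median and 40.2% above it, 78.3% in all. Adjusted p was 2.3e-06 for Gria3, 1.3e-06 for Gria2, 2.7e-05 for Grik2, 0.0039 for Grik1 and 0.46 for Grin2d. Of all 12207 tested, only 2.20% had a lower mean ratio than Gria3, 6.02% than Gria2 and 10.1% than Grik2, against 35.3% for Grik1 and 50.9% for Grin2d. With the sign turned, the same shares would lie above these genes.

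**Figure D1:**
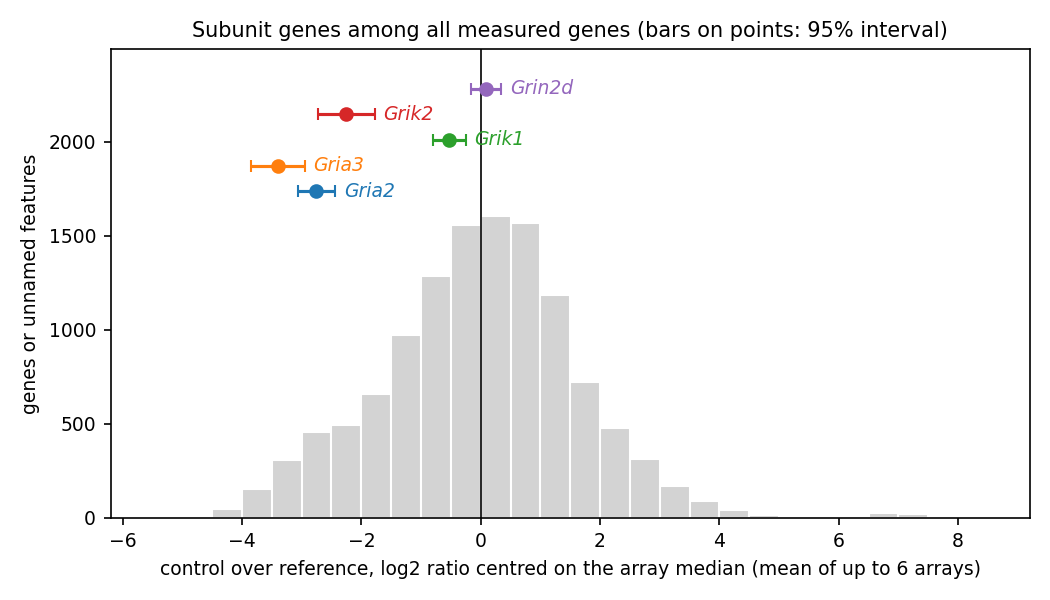
Grey bars count the genes or unnamed features by their mean log2 ratio of control tissue over reference, centred on the array median, and coloured points give the 5 subunit genes with their 95% interval (points are set at separate heights for legibility only). Gria3, Gria2 and Grik2 lie in the left tail, at -3.40, -2.75 and -2.25, while Grin2d lies at the centre.

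Both AMPA genes were also below the reference before centring, though by less, with control means of -1.83 for Gria2 and -2.48 for Gria3. In the deposited values, all 24 spot values of Gria2 were below 0, from -2.95 to -0.56, and so were all 24 of Gria3, from -3.68 to -1.11. For Grik2, 22 of 24 were below 0. For Grik1 only 5 of 24 were, and for Grin2d 0 of 24. Without centring, Grik1 changed side, to 0.39 with an adjusted p of 0.30 by limma, and Grin2d stood above 0 at 1.01 with an adjusted p of 0.0057. The positions of Grik1 and Grin2d against the reference therefore hold only relative to the array median.

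The pairing asks whether these receptor genes differ between ethanol-treated animals and their controls. None of the 5 genes was called, and Gria2 came nearest to a difference, lower by 0.31 on the log2 scale in alcoholic animals. In limma's test with the pair as a block, 0 of 5 genes passed an adjusted p of 0.05, as did 0% of the 11835 genes or unnamed features tested and 0% of 12351 clones. At an unadjusted p under 0.05 the fit held 2.45% of everything tested, the fit of clones 2.43%, and both 0 of the 5. The other 4 genes stood higher in alcoholic animals, against 51.7% of all tested, and the median difference of the 5 genes was 0.10, against 0.01 over all. The ranges of the groups overlapped in 5 of 5 genes. Over the 11011 genes or unnamed features measured on every array they were apart in 0.00908%. These 11011 are called the genes measured on every array below.

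Gria2 had the following 12 values. In alcoholic animals its centred log2 ratio ran from -3.45 to -2.285 with a median of -3.14, and in controls from -3.13 to -2.415 with a median of -2.73. The alcoholic animal of pair 3 was the highest of all 12, and the other 5 alcoholic animals lay below their own controls. The differences within pairs, alcoholic minus control, were -0.535 in pair 1, -0.21 in pair 2, 0.21 in pair 3, -0.32 in pair 4, -0.365 in pair 5 and -0.625 in pair 6. Their mean of -0.31 had a standard error of 0.13 and a 95% interval from -0.62 to 0.01, or from 0.651 to 1.00 as a ratio. By limma the unadjusted p was 0.053 and the adjusted p 0.999. Gria2 was lower in 5 of 6 pairs; of the genes measured on every array, 8.07% were lower in at least 5. Without pair 3 the difference was -0.41, with an unadjusted p of 0.0093 and an adjusted p of 0.958 in the same test. Pair 3 is the one that runs against the rest, so leaving it out is a choice made on the outcome, and that p is not a test of Gria2. Leaving out any of the other 5 pairs gave -0.33 to -0.24, with an unadjusted p of 0.080 to 0.139 by limma.

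The spots of Gria2 disagreed on where the exception lay. On feature 2579 the difference was -0.47 (95% interval -0.79 to -0.14), and on feature 2580 it was -0.15 (-0.70 to 0.40). In limma's fit of single features the unadjusted p was 0.011 and 0.55, both with an adjusted p of 0.998; 2.39% of 17012 features had an unadjusted p under 0.05 there. In pair 3 feature 2579 gave -0.755 and feature 2580 gave 1.175, so the only positive pair of the gene mean came from a single spot. On feature 2579 the exception was pair 2 instead, at 0.08. Both spots were lower in alcoholic animals in pairs 1, 4, 5 and 6.

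Gria3, the other AMPA gene, showed no shared direction, with 3 pairs higher and 3 lower. Its centred log2 ratio ran from -3.96 to -3.00 in alcoholic animals, with a median of -3.23, and from -4.10 to -2.81 in controls, with a median of -3.29. The lowest values were those of control 1, alcoholic 2 and control 2, and the remaining 9 animals lay between -3.495 and -2.81. The pair differences were 1.10, -0.07, -0.465, 0.005, -0.29 and 0.315 for pairs 1 to 6. Pair 1 alone carried the sign of their mean, 0.10 (SE 0.21, 95% interval -0.38 to 0.58). Without pair 1 the mean was -0.10. Adjusted p by limma was 0.999 in both cases.

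The balance between both AMPA subunit genes was taken as a difference within each array, where centring cancels. Its level also carries the balance of both genes in the reference, so it does not give the balance of the transcripts in the tissue. The difference of Gria2 minus Gria3 in centred log2 ratio was 0.24 ± 0.56 (SD, n = 6) with alcohol and 0.64 ± 0.68 (SD, n = 6) without. It was lower in the alcoholic animal in 5 of 6 pairs, by amounts from -1.635 in pair 1 to -0.075 in pair 5, and higher by 0.675 in pair 3. In pair 3 both spots of Gria2 disagreed, at -0.755 and 1.175. The mean change of -0.41 was smaller than its SD over pairs, 0.79, and no test was made of it, since the balance was chosen after the values were seen.

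**Figure D2:**
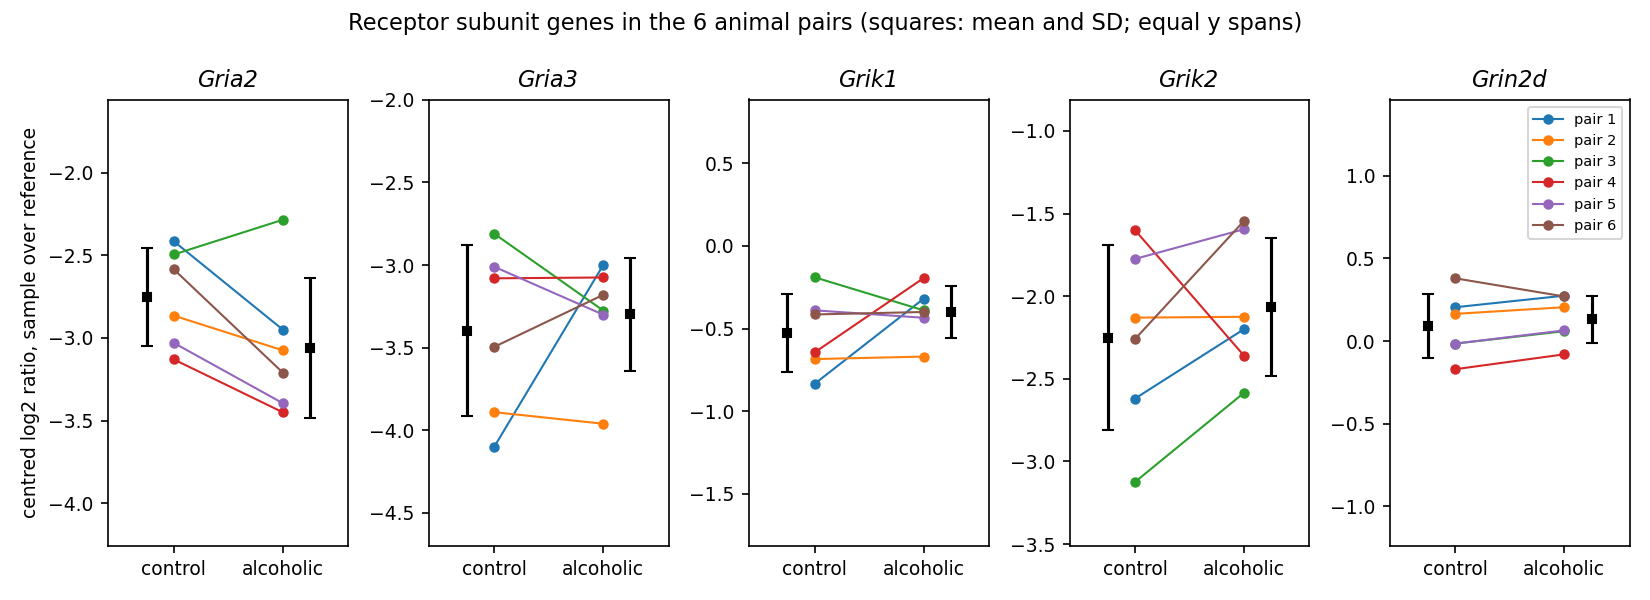
Each line joins the control and the alcoholic animal of a pair, with the centred log2 ratio of sample over reference on the vertical axis; black squares with bars are the group mean and SD (n = 6), and all panels span the same number of log2 units. Lines of Gria2 fall except in pair 3, those of Gria3 and Grik2 cross, and those of Grin2d run nearly flat.

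Of the kainate genes, Grik2 was higher in 5 of 6 pairs without a call; of the genes measured on every array, 8.56% were higher in at least 5. Its centred log2 ratio ran from -2.585 to -1.545 in alcoholic animals, with a median of -2.16, and from -3.125 to -1.60 in controls, with a median of -2.20. The pair differences were 0.42, 0.005, 0.54, -0.76, 0.18 and 0.715 for pairs 1 to 6. Pair 4 ran against the others. The mean was 0.18 (SE 0.20, 95% interval -0.28 to 0.64) with an adjusted p of 0.999 by limma. It was 0.37 without pair 4, with an unadjusted p of 0.044 and an adjusted p of 0.999 by limma, again with the opposing pair left out. The mean was 0.11 without pair 3 and 0.08 without pair 6. In pair 3 the first spot, feature 17309, differed by 1.085 and the second, feature 17310, by -0.005, while both gave -0.79 and -0.73 in pair 4.

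Grik1 spread little between animals, with values from -0.67 to -0.195 in alcoholic animals (median -0.395) and from -0.835 to -0.19 in controls (median -0.53). Its SD over the 12 arrays was 0.20. Of the 11835 genes or unnamed features tested, 7.82% had a smaller SD, and their median SD was 0.35. Only 4497 of these were genes with a single symbol, and the rest were single spots. The value of Grik1 is a mean of 2 spots, so this share does not compare like with like. The pair differences were 0.515 in pair 1 and 0.45 in pair 4, and between -0.20 and 0.015 in the other 4 pairs. Their mean was 0.13 (SE 0.13, 95% interval -0.18 to 0.43), with an adjusted p of 0.999 by limma, and 0.05 without pair 1 or 0.06 without pair 4. The difference of Grik2 minus Grik1 within arrays was -1.67 ± 0.48 (SD, n = 6) with alcohol and -1.73 ± 0.67 (SD, n = 6) without. Its change split 3 pairs higher to 3 lower.

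Grin2d, the NMDA receptor gene, was the steadiest of the 5. Values ran from -0.08 to 0.275 in alcoholic animals, with a median of 0.14, and from -0.17 to 0.38 in controls, with a median of 0.08. Of the 11835 genes or unnamed features tested, 2.80% had a smaller SD over the arrays than Grin2d, at 0.16. Here too a mean of 2 spots is set against mostly single spots. The differences were 0.07, 0.04, 0.075, 0.09 and 0.08 in pairs 1 to 5, and -0.11 in pair 6. The mean of 0.04 (SE 0.10, 95% interval -0.18 to 0.26) had an adjusted p of 0.999 by limma, and its interval was the narrowest among the 5 genes, from 0.882 to 1.20 as a ratio. With the values not centred the mean was -0.012, so the sign of this small difference depends on the scaling. On the second spot, feature 7512, it was -0.002.

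The intervals show what sizes of change these arrays leave possible. For 5 of 5 genes the 95% interval stayed inside a 2-fold decrease and a 2-fold increase, as it did for 86.7% of all tested. For Grin2d, Grik1 and Gria3 it stayed inside 1.5-fold, as for 66% of all, with the upper end of Gria3 just inside. Gria2 could be lower by more than 1.5-fold and Grik2 higher by more than 1.5-fold at the ends of their intervals.

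**Figure D3:**
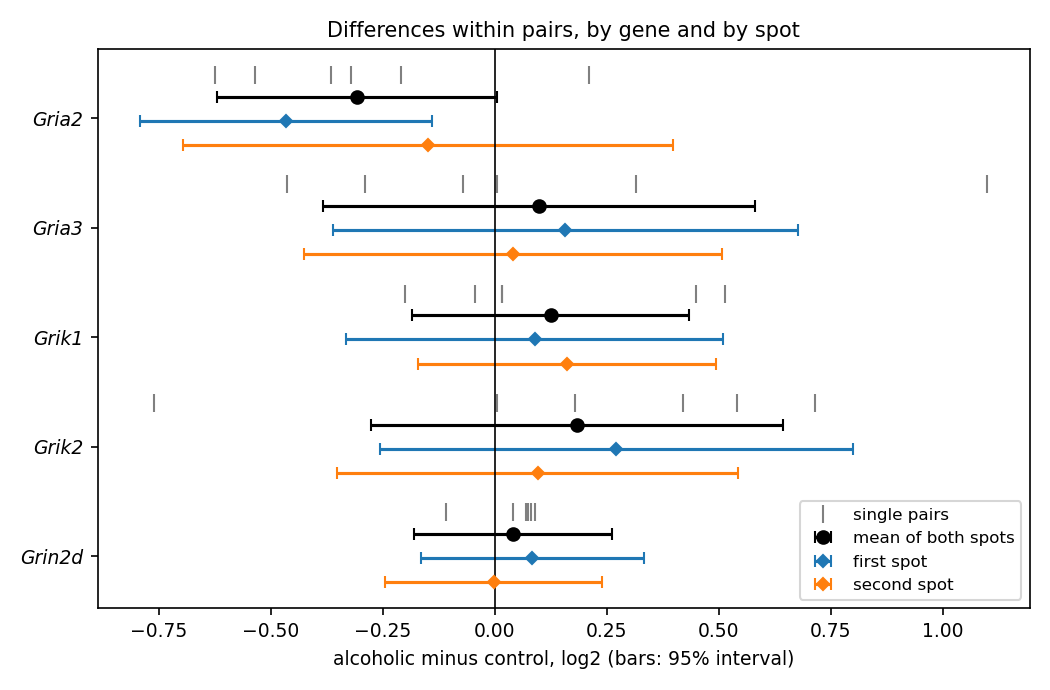
The horizontal axis is the alcoholic minus control difference in log2 ratio; grey ticks are the 6 single pairs, black points the mean of both spots, coloured diamonds the first and the second spot, each with its 95% interval from limma. The interval of Gria2 on the mean of both spots ends at 0.01, its first spot excludes 0 before adjustment, and the other 4 genes straddle 0.

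Both spots of a gene hold the same clone, so their disagreement measures error within an array. Over the 12 arrays the median absolute difference between spots was 0.26 for Gria2, 0.18 for Gria3, 0.15 for Grik1, 0.08 for Grik2 and 0.09 for Grin2d, and 0.18 over 5051 such pairs of features. The correlation between spots over the 12 arrays, given as a description, was 0.84 for Grik2, 0.83 for Gria3 and 0.82 for Grin2d, but only 0.34 for Gria2 and 0.30 for Grik1. For Gria2 the error of a mean of 2 spots, computed from the spot differences, was 0.27, or 0.702 of the SD of the gene between arrays. For Grik1 that share was 0.740, and for the other 3 genes it was between 0.297 and 0.352. The widest gap between spots was 1.15, in Gria2.

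**Figure D4:**
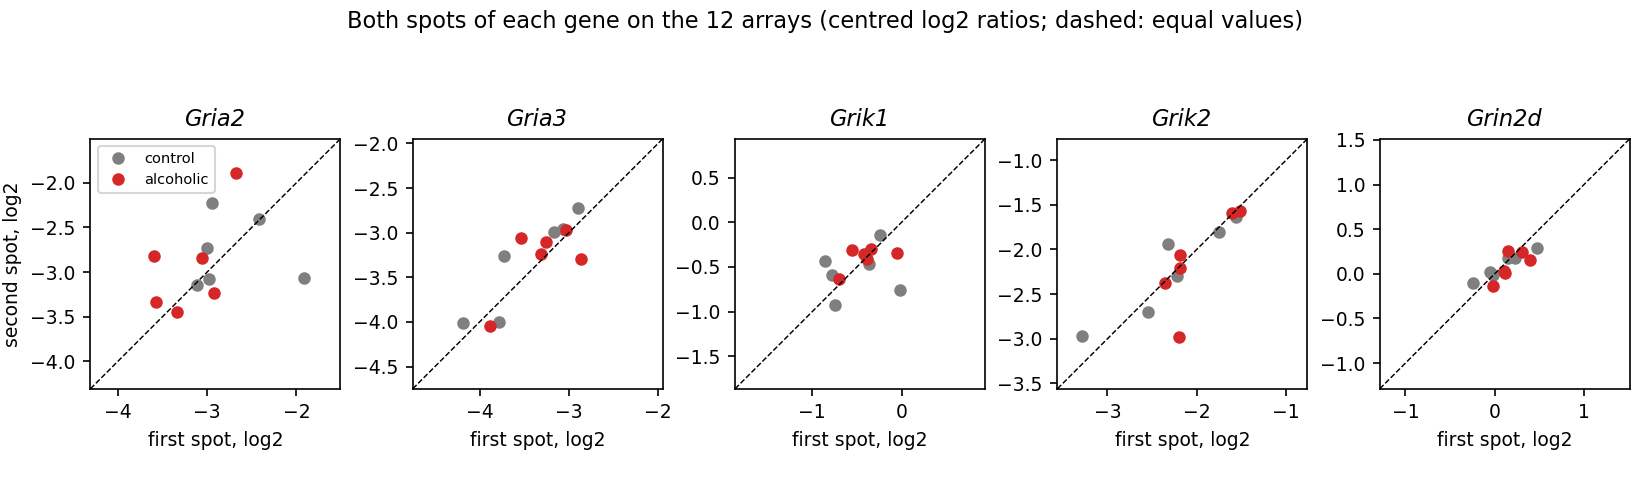
Each point is 1 array, with the centred log2 ratio of the first spot on the horizontal and of the second spot on the vertical axis (grey control, red alcoholic), and the dashed line marks equal values. Points of Grin2d and most of Grik2 hug the line, while those of Gria2 scatter off it by up to 1.15. The median gap between spots is 0.18 for Gria3, as over all such pairs of features, and 0.15 for Grik1.

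Pairs did not move all subunits together. In pair 1, 4 of 5 genes were higher in the alcoholic animal, and only Gria2 was lower. In pairs 2, 3, 4 and 6, 3 genes were higher and 2 lower, and in pair 5 this was 2 higher and 3 lower. Gria2 and Grik2 had opposite signs in 4 of 6 pairs. In pair 3 both were higher, and in pair 4 both were lower.

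Across animals, 2 of the 10 relations between members passed the adjusted threshold. Gria3 and Grik1 rose and fell together over the 12 arrays, with Pearson's r of 0.83 (permutation p = 0.00094, adjusted over 10 relations 0.0094) and Spearman's rho of 0.88 (permutation p = 0.00038, adjusted 0.0038). Within groups r was 0.92 in alcoholic and 0.81 in control animals, and it was 0.67 without control 1 and alcoholic 2, the arrays farthest from the median of Gria3. Both spots of Grik1 correlated with each other only at 0.30, less than their mean did with Gria3, which limits how far this relation can be read. Gria2 and Grik2 ran against each other, with r of -0.71 (permutation p = 0.0093, adjusted 0.047) and rho of -0.70 (permutation p = 0.014, adjusted 0.069). Within groups r was -0.61 in alcoholic and -0.89 in control animals, and it was -0.64 without alcoholic 3 and control 1. After quantile normalization between arrays, 0 of the 10 relations passed, with r of 0.57 for Gria3 with Grik1 and -0.41 for Gria2 with Grik2 (adjusted permutation p = 0.42 for both). Arrays of a pair are not fully independent. Over the differences within the 6 pairs, r of Gria2 with Grik2 was -0.06 (exact permutation p = 0.92, adjusted 0.92) and rho -0.37 (exact permutation p = 0.50, adjusted 0.69), so their opposed course was not seen there. For Gria3 with Grik1, r was 0.75 (exact permutation p = 0.072, adjusted 0.55) and rho 0.90 (exact permutation p = 0.028, adjusted 0.28).

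More genes followed Gria3 over the arrays than followed any of the other subunits. Among 4320 other genes with a single symbol and a value on every array, 241 (5.58%) had an r above 0.8 with Gria3. This number was 87 (2.01%) for Grin2d, 54 (1.25%) for Grik1, 7 (0.162%) for Gria2 and 6 (0.139%) for Grik2. The share for a typical gene was not computed. Grik1 held place 153 among the genes most like Gria3, and Gria3 place 28 among those most like Grik1. Grik2 had the 28th lowest r with Gria2. The array median before centring correlated with Gria3 at r = 0.40 and rho = 0.53 (permutation p = 0.20 and 0.082, adjusted over 5 relations 0.62 and 0.41), and with Grik1 at r = 0.32 and rho = 0.36 (permutation p = 0.31 and 0.25, adjusted 0.62 and 0.54). Without the 2 arrays farthest from the middle of the array medians, r was 0.32 and 0.42. The part of array scaling in these relations was not tested further.

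Genes most like each subunit over the 12 arrays were named by Pearson's r among those 4320 genes, as a description. For Gria3 they were Smad2 (0.97), a transducer of TGF-beta signals, Nupr1 (0.95), a stress-induced nuclear protein, and Aurkb (0.95), a mitotic kinase. Nupr1 also came first for Grik1 (0.90), followed by Igfbp2 (0.90), a binding protein of insulin-like growth factors, and Cspg4 (0.90), the NG2 proteoglycan of oligodendrocyte precursors. For Gria2 they were Snrnp70 (0.89), of the spliceosomal U1 particle, C1qtnf5 (0.87) and Os9 (0.85), a lectin of endoplasmic reticulum quality control. Those r values exceed the 0.34 between both spots of Gria2, and those given for Grik1 exceed the 0.30 between its spots. For Grik2 they were Vcp (0.93), an ATPase that extracts ubiquitinated proteins, Rybp (0.86) and Spcs2 (0.82), and for Grin2d Vwa5b2 (0.93), Krt86 (0.93) and Haus7 (0.92). The lowest coefficients were those of Lmo4 with Gria2 (-0.90), Ptpn13 with Gria3 (-0.89), Jagn1 with Grik1 (-0.86), Septin4 with Grik2 (-0.87) and Ube2d2 with Grin2d (-0.93).

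Other genes of glutamate signalling gave no call either. Of 121 such genes listed, 27 were tested, with 15 higher and 12 lower in alcoholic animals, 0 called by limma, 0 at an unadjusted p under 0.05 and a median difference of 0.004. None of the 13 other ionotropic subunit genes and none of the 8 metabotropic receptor genes was matched by a single symbol, so the 5 genes are the only receptor subunits described. Among 8 trafficking and auxiliary genes, 4 were higher and 4 lower. Nptx1 and Nptxr, a neuronal pentraxin and the pentraxin receptor, which cluster AMPA receptors at synapses, differed by 0.17 (95% interval -0.06 to 0.41, higher in 6 of 6 pairs) and 0.20 (-0.10 to 0.50, higher in 5 of 6). Of the genes measured on every array, 8.56% were higher in at least 5 pairs. Sacm1l, a phosphoinositide phosphatase, differed by -0.29 (-0.75 to 0.17, lower in 4 of 6 pairs). Gsg1l, an auxiliary subunit of AMPA receptors, differed by -0.09 (-0.46 to 0.28), though it was higher in 4 of 6 pairs. Nsf, the ATPase that binds GluA2 and keeps it at the membrane, differed by 0.01 (-0.23 to 0.25).

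Postsynaptic density genes split 5 higher to 6 lower, with a median of -0.002. Camk2d, a subunit of the calcium and calmodulin kinase, had the widest difference at 0.455, with an interval from -0.67 to 1.58 and 3 of 6 pairs higher. Baiap2, an adaptor of the spine cytoskeleton, differed by 0.14 (-0.18 to 0.46) and Nlgn1, the neuroligin of excitatory synapses, by -0.05 (-0.35 to 0.26). Shank1, a scaffold, differed by -0.08 (-0.53 to 0.37), though it was higher in 4 of 6 pairs. Of 5 glutamate transport and metabolism genes, 4 were higher. Glud1, which converts glutamate to 2-oxoglutarate, differed by 0.16 (-0.20 to 0.52), the glutamine transporter gene Slc38a2 by 0.13 (-0.13 to 0.39) and the neuronal glutamate transporter gene Slc1a1 by -0.18 (-0.57 to 0.22). Of the genes that control such transcripts, Ptbp1, a splicing repressor outside neurons, differed by 0.13 (-0.17 to 0.43) and its neuronal relative Ptbp2 by -0.06 (-0.88 to 0.76). The neuronal RNA-binding protein gene Elavl3 differed by 0.10 (-0.25 to 0.45), though it was lower in 4 of 6 pairs. The only inhibitory receptor gene measured, Gabrd, differed by 0.10 (-0.26 to 0.47).

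**Figure D5:**
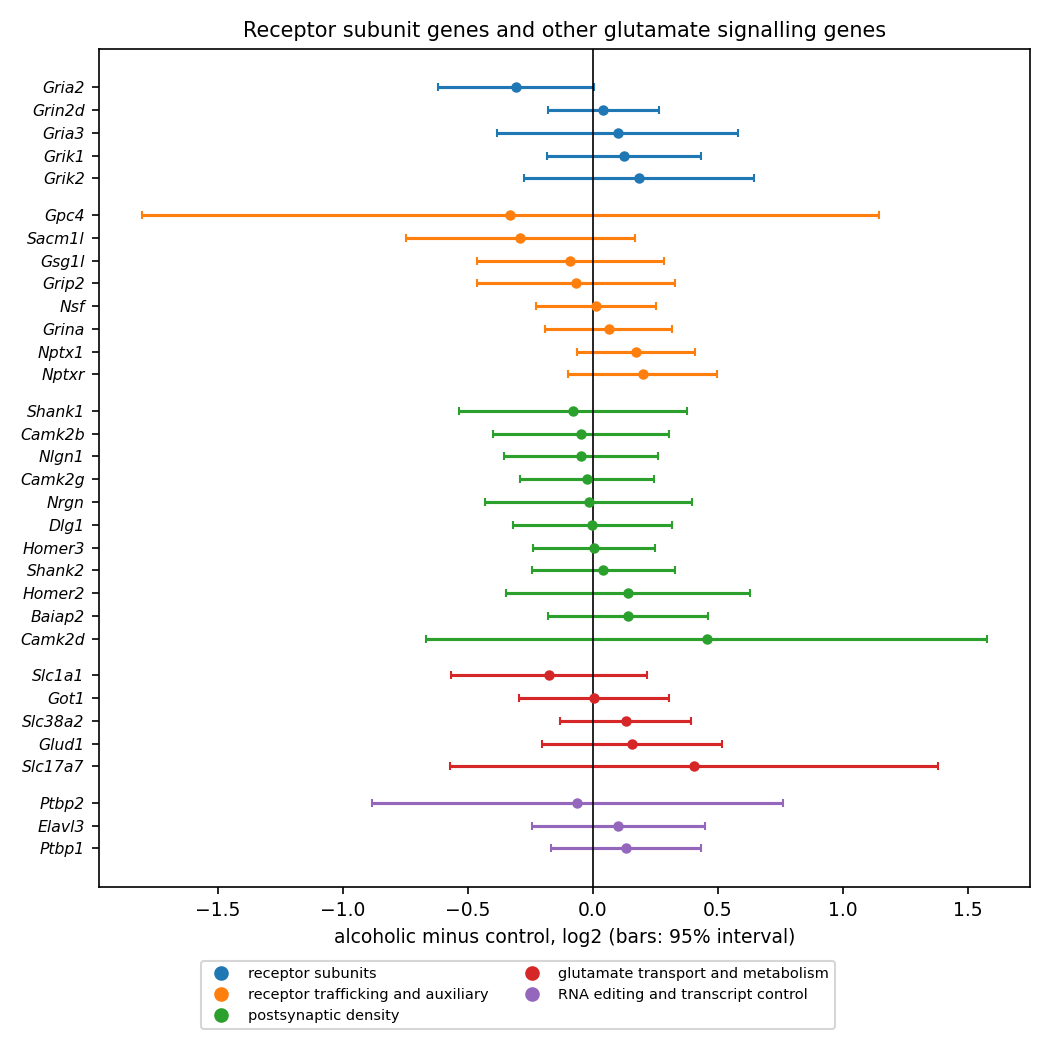
Points give the alcoholic minus control difference in log2 ratio for the 5 receptor subunit genes and 27 other glutamate signalling genes, with 95% intervals from limma and colours by list. The intervals of all 32 genes reach 0, and Gria2 has the interval nearest to leaving it.

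Marker genes of cell types were read as far as symbols were matched. Their ratios are to a reference of unknown make-up, so they cannot show which cells the punches held. In controls, limma called 40.2% of everything tested above the array median and 38.1% below it. Neuron markers stood above the array median in controls for 5 of 7 genes, such as Eno2 at 3.00, and below it for 2, Elavl3 at -1.14 and Uchl1 at -1.05. Of 5 markers of NTS neurons, 1 was called above the median, the hindbrain transcription factor gene Tlx3 at 0.62. Another 2 were called below it, Npy at -1.23 and Pomc at -0.88, the latter named after its value was seen, and 2 were not called. Between groups, 51.7% of everything tested was higher in alcoholic animals. Astrocyte markers were higher there for 6 of 6 genes, with 0 called by limma. The mean centred log2 ratio of that list ran from 0.03 to 1.26 in alcoholic and from -0.03 to 0.62 in control animals and was higher in 3 of 6 pairs. The 5 markers of NTS neurons were all higher too (Npy 0.32, Tlx3 0.22; 0 called), and their mean ran from -0.25 to -0.08 against -0.46 to -0.20, higher in 5 of 6 pairs. Neuron markers split 4 higher to 3 lower (Nefh 0.36, Eno2 -0.07), with list means from 0.83 to 1.33 and from 0.58 to 1.34. Oligodendrocyte markers split 4 to 2 (Cnp 0.15, Tspan2 -0.50), 5 of 5 microglia markers were higher by at most 0.10, and endothelium and blood markers split 4 to 5 (S100a8 0.27, Tek -0.23). The part of cell composition in the values of the receptor genes was not tested.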

How the data were processed

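The deposited table held log2 ratios of 18144 features on 12 two-colour arrays, made by the authors; per the labels, reference RNA was in Cy3 and the animal's amplified RNA in Cy5. Scanner, background correction, filters and normalization are not given in the sources used here, and base 2 is inferred from their size, if signals had 16 bits. Symbols came from an older platform annotation. Exact zeros were set missing, arrays centred on their median and features with 1 shared symbol averaged. Genes measured in both animals of 4 or more pairs were tested with limma 3.58.1 in R 4.3.3 (lmFit, eBayes), with the pair as a fixed block, which the labels state, and Benjamini-Hochberg adjustment at 0.05. Deviations from group means correlated between the arrays of a pair with r of 0.007 to 0.43 (mean 0.22). The mean between pairs was -0.04, which is no independent comparison, since deviations sum to 0 within a group. In 3 of 6 pairs the alcoholic array was most like its own control. Control ratios were tested against the array median with limma on the 6 control arrays, without a block, where at least 4 of them were measured. The adjustment was the same. Correlations used 100000 permutations, two-sided. Other genes were named by a rule: the 2 smallest p in each direction per list, Nsf as a known partner of GluA2, and 3 highest and 1 lowest r per member; Pomc was added after its value was seen. Members and lists were chosen with earlier results of these data known. Alternatives covered zeros, scaling, the block, filters, robust moderation, single features and each pair left out.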

Additional observations from a re-analysis of the deposited data

Results flagged for a closer look

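In 15 groups of values tested (each gene's alcoholic animals, controls and pair differences), 2 held a value far from the others, where chance gives about 1 in 20. Gria3 stood at -3.96 in the alcoholic animal of pair 2, with the other 5 alcoholic animals between -3.30 and -3.00; the control of that pair was low as well, at -3.89. The difference of Grin2d was -0.11 in pair 6, against 0.04 to 0.09 in the other 5 pairs.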

How the results depend on the processing

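Under every alternative run, 0 receptor subunit genes were called between groups, and the difference of Gria2 stayed negative, from -0.41 to -0.24 with 1 pair left out and at -0.47 and -0.15 on its 2 features. With 1 pair left out, Gria3 ranged from -0.10 to 0.21, Grik1 from 0.05 to 0.19, Grik2 from 0.08 to 0.37 and Grin2d from 0.03 to 0.07. In the fit without the pair block the differences were the same, with a standard error of 0.21 for Gria2 against 0.13, and 0 genes and 0 clones were called, so the block changed no call. Without centring, limma called 4 genes and 4 clones, none of them a receptor subunit; Grin2d differed by -0.012 between groups, and over the reference Grik1 stood at 0.39 and Grin2d at 1.01. The cause of the 4 calls was not tested. The alternatives for correlations were chosen after seeing the data: 0 relations passed with quantile normalization, 8 without centring, 1 with zeros kept, 1 on first spots 0 on second spots and 0 over differences within pairs, against 2. In that order, r of Gria2 with Grik2 was -0.41, 0.15, -0.68, -0.77, -0.54 and -0.056, and r of Gria3 with Grik1 was 0.57, 0.94, 0.82, 0.68, 0.68 and 0.75. Uncentred values share the array's own offset. Signal over background, which limits low ratios such as those of Gria2 and Gria3, was not used here.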
